A study of Mus musculus with 2 samples.

Results

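The adhesion genes described here are 10 genes that act when white blood cells leave the blood: the endothelial selectins Sele and Selp, the immunoglobulin family molecules Icam1, Icam2, Vcam1 and Pecam1, and on the leukocyte side the selectin ligand Selplg and the integrin chains Itgal, Itgb2 and Itga4. They were taken as a list of names, and all 10 were found among the 34745 genes of the count table. RNA came from ear skin of mice and was sequenced in 2 libraries, 1 from a wild type (WT) animal or animals and 1 from a KAT8 conditional knockout (KAT8 cKO). KAT8 is a histone acetyltransferase. Ears in both groups had been given imiquimod, an agonist of TLR7 that inflames mouse skin in a way that resembles psoriasis, as 30 mg of a 5% cream per ear on each of 3 days, and were taken on day 4. No untreated skin was analysed here. The sources used here do not give the driver of the knockout, nor the strain, age, sex or number of animals behind each library. The libraries are called WT-labelled and cKO-labelled below. Each genotype has 1 library, so the spread between animals is unknown, no test was run, and every value describes these 2 libraries and not the genotypes.

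Leukocytes leave the blood in steps. E-selectin and P-selectin on activated endothelium bind glycans on PSGL-1, the product of Selplg, and let the cell roll. Chemokine signals then switch on leukocyte integrins, which hold the cell firmly: LFA-1, made of the chains encoded by Itgal and Itgb2, binds ICAM-1 and ICAM-2, and the integrin with the alpha 4 chain encoded by Itga4 binds VCAM-1. PECAM-1, found at endothelial junctions and on leukocytes and platelets, takes part in passage through the vessel wall. In skin these steps take place mainly in small venules of the dermis.

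The 2 libraries held 12179608 (WT) and 13727524 (KAT8 cKO) counts on genes. Kat8, the targeted gene, had 219 counts with the WT label and 351 with the cKO label and was thus not lower, which goes against the label, so libraries are named by label throughout and each direction below rests on labels that Kat8 does not back. Its value covers the whole gene, all cells of the ear and exons outside a deleted part, so it checks the label only in part. Sex-linked transcripts differed between them as well (Xist 11891 and 6 counts, Y-linked Eif2s3y 0 and 838), and sex and genotype label cannot be told apart in these data. Summed markers of red cells, adipocytes and skeletal muscle were 19.1-fold, 12.6-fold (8.40-fold without the 2 most abundant markers, Fabp4 and Cfd) and 5.20-fold lower in the cKO-labelled library. The labelled tissue had its defining transcripts in both: the keratinocyte marker sum was 26925 CPM (WT) and 28259 CPM (cKO), where CPM is the count per 1000000 counts of a library, with totals scaled by trimmed mean of M values (TMM). On this scale 1 count is worth 0.0868 CPM (WT) or 0.0689 CPM (cKO).

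The adhesion genes did not differ in one direction. Icam1 was close to 2-fold higher in the cKO-labelled library and Itga4 was 1.63-fold higher. Vcam1 was 3.17-fold lower, and Itgb2, Selplg and Itgal were each about 2-fold lower. For the selectin genes Sele and Selp the libraries differed by no more than counting error, and Icam2 and Pecam1 were modestly lower. A log2 ratio here is log2 of (KAT8 cKO CPM + 1) over (WT CPM + 1), and a gene counts as higher or lower when this is at least 1 in size, which is 2-fold. By that rule 3 of the 10 genes (Vcam1, Itgb2 and Selplg) were lower and 0 were higher, beside 8.63% of all 15240 measured genes lower and 4.56% higher. The median log2 ratio was -0.40 over the 10 genes and 0.01 over all measured genes. These counts depend on the scaling, since 4 of the genes lie near 2-fold. With plain CPM, whose median over all genes is 0.16, Vcam1 alone was lower and Icam1 alone was higher, so that 1 gene passed in each direction, beside 6.94% and 6.33% of all genes.

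**Figure D1:**
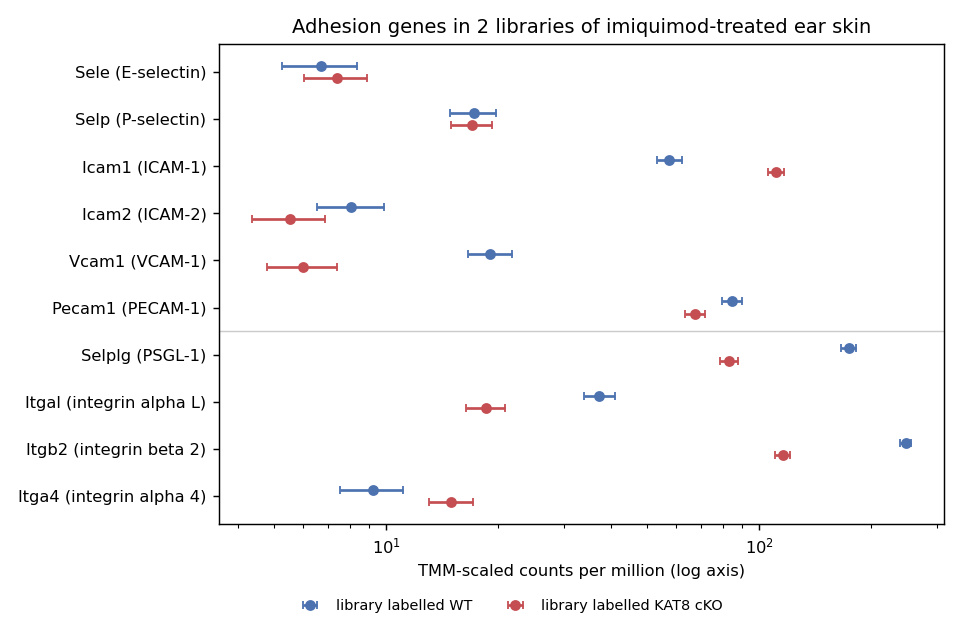
Level of each of the 10 adhesion genes in the WT-labelled library (blue) and the cKO-labelled library (red), in TMM-scaled CPM on a log axis, with exact 95% Poisson intervals that cover counting error only. Endothelial genes stand above the grey line and leukocyte genes below it, and the intervals of the libraries overlap for Sele, Selp and Icam2.

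Endothelial selectins came first in this sequence of steps and showed the smallest differences. E-selectin is made by endothelium after stimulation by cytokines. Sele (ENSMUSG00000026582, chromosome 1 from 164048234 to 164057677, plus strand, GRCm38) had 77 counts in the WT-labelled library and 107 in the cKO-labelled library, or 6.68 and 7.37 CPM. The ratio was 1.10 with an exact 95% interval of 0.815 to 1.5, so no difference was detectable at this depth. P-selectin is stored in endothelial granules and in platelets. Selp (ENSMUSG00000026580, chromosome 1 from 164115264 to 164150026, plus strand) had 198 and 247 counts, or 17.2 and 17.0 CPM, a ratio of 0.990 (interval 0.818 to 1.20). Its log2 ratio was -0.01 and became 0.14 with plain CPM, so it has no direction. Within each library Sele had 0.389 and 0.433 of the counts of Selp, a 1.11-fold difference (interval 0.787 to 1.58) that does not depend on any scaling between libraries. Exons of Selp share 438 and 186 bases with antisense genes Gm16548 and Gm16587, which had 0 and 2 and 0 and 0 counts.

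Sele and Icam1 are known to be induced by cytokines through NF-kappaB. Because Sele was level here while Icam1 was higher, their start regions are shown, with that of Selp. Of the 10 genes, 4 matched an entry in the RefSeq promoter table on GRCm38.p6 (Sele, Selp, Icam1 and Itga4), and Icam2, Vcam1, Pecam1, Selplg, Itgal and Itgb2 did not. The 250 bases before the RefSeq start are printed 5′ to 3′, with matches to the searched motifs in capitals. They lie at chr1:164047984-164048233, chr1:164115014-164115263 and chr9:21015690-21015939, all on the plus strand.
Sele: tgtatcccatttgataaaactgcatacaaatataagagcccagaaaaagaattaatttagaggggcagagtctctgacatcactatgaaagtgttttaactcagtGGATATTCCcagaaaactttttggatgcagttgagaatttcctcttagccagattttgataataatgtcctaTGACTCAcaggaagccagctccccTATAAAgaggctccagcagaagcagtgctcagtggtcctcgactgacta
Selp: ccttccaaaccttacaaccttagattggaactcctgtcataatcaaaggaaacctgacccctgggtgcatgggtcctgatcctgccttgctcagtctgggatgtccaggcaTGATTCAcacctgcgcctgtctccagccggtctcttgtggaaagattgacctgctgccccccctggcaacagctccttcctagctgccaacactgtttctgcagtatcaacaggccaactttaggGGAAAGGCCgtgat
Icam1: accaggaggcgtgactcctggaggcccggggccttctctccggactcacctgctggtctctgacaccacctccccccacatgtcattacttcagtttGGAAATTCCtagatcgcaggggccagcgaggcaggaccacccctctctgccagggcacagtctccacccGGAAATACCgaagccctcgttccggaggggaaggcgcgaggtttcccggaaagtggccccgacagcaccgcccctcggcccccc

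Both strands were searched for the NF-kappaB consensus, for the AP-1 motif TGANTCA and for the TATA box TATAAA. A looser NF-kappaB form, GGNNNTTCC, was added with the sequences in view, and part of its matches would also count under the consensus. Sele held TGANTCA from 73 to 67 bases before the start, TATAAA from 49 to 44 bases and GGNNNTTCC from 145 to 137 bases. Selp held TGANTCA from 139 to 133 bases and, on the minus strand, GGNNNTTCC from 14 to 6 bases before the start. Icam1 held GGNNNTTCC at 153 to 145 bases, where both strands matched, and on the minus strand at 84 to 76 bases. Its start in GENCODE lies 45 bases after that in RefSeq. The 250 bases of Itga4 held none of the 4 motifs, and the NF-kappaB consensus itself was in 0 of the 4 windows. Among all 32851 RefSeq promoter windows of the same length 3.90% held the consensus, 6.75% TGANTCA, 12.4% TATAAA and 15.7% GGNNNTTCC. These matches describe letters and not binding.

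Icam1, the gene of one ligand of LFA-1, was higher in the cKO-labelled library, and Vcam1, the gene of the ligand of the alpha 4 integrin, was lower. ICAM-1 is present on endothelium, keratinocytes and leukocytes and is raised by cytokines. Icam1 (ENSMUSG00000037405, chromosome 9 from 21015985 to 21028817, plus strand) had 662 counts in the WT-labelled library and 1613 in the cKO-labelled library, or 57.5 and 111 CPM. This was the highest ratio among the 10 genes, 1.93 (interval 1.77 to 2.12), or 2.16 (1.97 to 2.37) with plain CPM. VCAM-1, which binds the alpha 4 integrin, is made by activated endothelium and by some macrophages and stromal cells. Vcam1 (ENSMUSG00000027962, chromosome 3 from 116109949 to 116129688, minus strand) had 219 and 87 counts, or 19.0 and 5.99 CPM, and was 3.17-fold lower (interval 2.46 to 4.11). It is the 1 gene of the 10 that passed the 2-fold rule in the same direction under every scaling, pseudocount and filter tried. The number of Icam1 counts per Vcam1 count was 3.02 in the WT-labelled library and 18.5 in the cKO-labelled library. This ratio within a library differed 6.13-fold (interval 4.71 to 7.99) and is not affected by scaling between libraries.

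The remaining endothelial molecules were lower by less than 2-fold. ICAM-2 is carried by resting endothelium and needs no cytokine. Icam2 (ENSMUSG00000001029, chromosome 11 from 106377656 to 106388075, minus strand) had 93 and 80 counts, or 8.07 and 5.51 CPM, a ratio of 0.683 (interval 0.50 to 0.931). With plain CPM the interval was 0.559 to 1.04 and included no difference. Pecam1 (ENSMUSG00000020717, chromosome 11 from 106654217 to 106750628, minus strand) had 977 and 979 counts, or 84.8 and 67.5 CPM, a ratio of 0.795 (interval 0.727 to 0.870). Icam2 and Pecam1 kept nearly the same relation to each other, with 0.0952 and 0.0817 Icam2 counts per Pecam1 count (cKO over WT 0.858, interval 0.629 to 1.17). Against Pecam1, Icam1 was 2.43-fold higher (interval 2.14 to 2.76) and Vcam1 2.52-fold lower (interval 1.94 to 3.28) in the cKO-labelled library.

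Of 16 markers of all endothelium, 2 (Cd93 and Ptprb) were at least 2-fold lower and 0 were higher, or 1 and 0 with plain CPM. The shares over all measured genes were 8.63% and 4.56%, or 6.94% and 6.33% with plain CPM. Log2 ratios of the 16 ran from -1.49 to 0.18 with a median of -0.55, and 15 were below 0. None of the 16 was at 0 counts in either library. Their sum went from 551 to 365 CPM, a 1.51-fold difference, with the receptor gene Cd93 from 93.6 to 32.7 CPM and Eng, an endothelial co-receptor, from 61.2 to 59.1 CPM. In bulk tissue, fewer cells of a type and less RNA per cell cannot be told apart. Relative to this sum Icam2 was level (1.03, interval 0.763 to 1.39) and Pecam1 was 1.20-fold higher (interval 1.09 to 1.32). Sele and Selp were 1.66-fold (interval 1.24 to 2.24) and 1.49-fold (interval 1.24 to 1.81) higher, and Icam1 was 2.92-fold higher (interval 2.65 to 3.22). Vcam1 stayed lower relative to the sum, by 2.10-fold (interval 1.63 to 2.70). Venular markers (374 CPM in WT and 285 CPM in KAT8 cKO) differed less. So did lymphatic markers (160 CPM in WT and 162 CPM in KAT8 cKO), with Ccl21a at 0 counts in both libraries. Without Pdpn and Lyve1, the 2 most abundant lymphatic markers, the lymphatic sum was 1.32-fold higher in the cKO-labelled library (interval 1.18 to 1.47). The part of endothelial content in the differences of single genes was not tested.

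Markers of other cell types that carry these molecules differed too. Platelets hold P-selectin, ICAM-2 and PECAM-1, and the sum of 9 platelet markers went from 110 to 58.4 CPM, with Pf4 from 83.1 to 30.9 CPM and Gp1bb from 11.3 to 13.2 CPM. Without these 2 genes the platelet sum had 180 and 208 counts, a ratio of 0.917 (interval 0.748 to 1.13). The platelet markers Gp9, Gp6, Treml1 and Clec1b had 1, 1, 7 and 7 counts in the WT-labelled library and 0 in the cKO-labelled library. Gp1ba had 0 counts in the WT-labelled library and 1 in the cKO-labelled library. None of these genes reached 1 CPM in either library, so their zeros show no difference. Keratinocytes can make ICAM-1, and their marker sum was 1.05-fold higher in the cKO-labelled library, with 2 of 8 markers at least 2-fold higher and 2 lower. Of the 2 most abundant markers, Krt5 was higher (ratio 1.47) and Krt14 slightly lower (0.959). Without both, the sum was 1.60-fold lower. Of the 66084 WT counts then left, Krt1 and Krt10, the 2 lower markers, had 28004 and 25301, with ratios of 0.380 and 0.284. The 2 higher markers were Krt15 (6.77) and Col17a1 (2.01). Relative to the keratinocyte sum Icam1 was 1.84-fold higher (interval 1.68 to 2.02), or 3.10-fold (interval 2.83 to 3.39) without Krt14 and Krt5. Leukocytes carry ICAM-1 too, and their marker sums are given below. Relative to the sums of all leukocytes, neutrophils, and monocytes or macrophages, Icam1 was 3.89-fold, 5.40-fold and 4.60-fold higher. With the 2 most abundant genes of each sum left out, these folds would be 1.03, 2.46 and 0.631 times as large. Relative to the T cell sum Icam1 was at 0.798 (interval 0.714 to 0.892). Most counts of that sum were from Thy1, which fibroblasts also express (999 of 1211 in WT and 3119 of 3698 in cKO). Without Thy1 and Trdc, its 2 most abundant genes, the value would be 1.20 times as large, and no interval was computed for it. Relative to the dendritic and Langerhans cell sum Icam1 was at 0.698 (interval 0.631 to 0.773). Whether these cells contribute to the values was not tested.

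**Figure D2:**
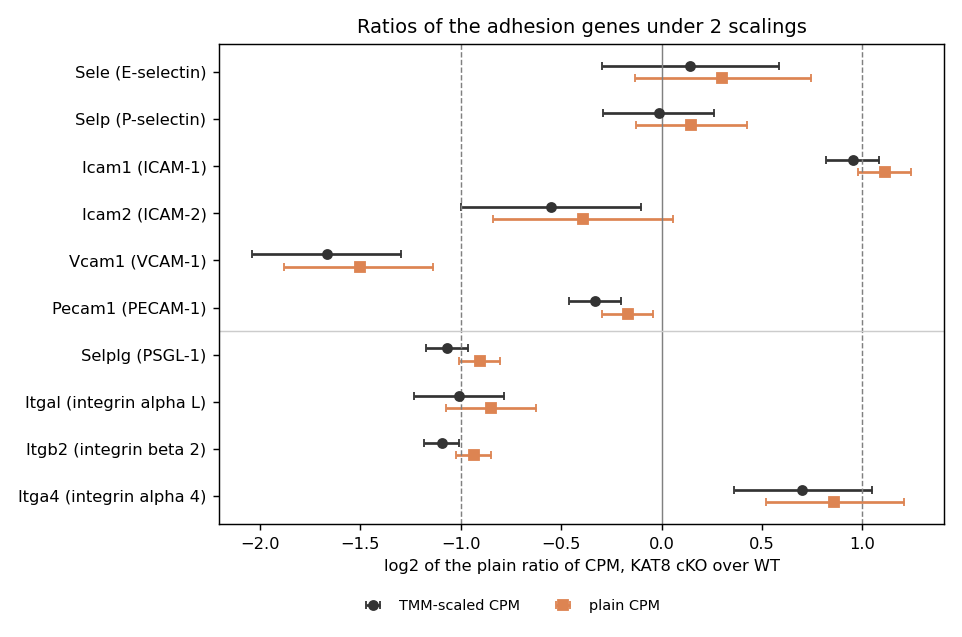
Plain ratio of CPM for each of the 10 genes, KAT8 cKO over WT, on a log2 axis with exact 95% intervals that cover counting error only, for TMM-scaled CPM (black circles) and plain CPM (orange squares). Dashed lines mark 2-fold. Vcam1 lies beyond the lower line under both scalings, while Itgb2, Selplg, Itgal and Icam1 lie close to a line and change sides or touch it.

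On the leukocyte side, the selectin ligand and both chains of LFA-1 were lower by nearly the same factor. PSGL-1 is carried by nearly all leukocytes. Selplg (ENSMUSG00000048163, chromosome 5 from 113818536 to 113832644, minus strand) had 2004 counts in the WT-labelled library and 1205 in the cKO-labelled library, or 174 and 83.0 CPM, and was 2.09-fold lower (interval 1.95 to 2.25). Itgb2 encodes the beta chain shared by LFA-1 and the other beta 2 integrins. Itgb2 (ENSMUSG00000000290, chromosome 10 from 77530252 to 77565708, plus strand) had 2847 and 1678 counts, or 247 and 116 CPM, and was 2.14-fold lower (interval 2.01 to 2.27). Itgal (ENSMUSG00000030830, chromosome 7 from 127296260 to 127335138, plus strand), the alpha chain of LFA-1, had 430 and 269 counts, or 37.3 and 18.5 CPM, and was 2.01-fold lower (interval 1.73 to 2.35). Its log2 ratio of -0.97 falls just short of the 2-fold rule because of the pseudocount. The chains of LFA-1 kept their relation, with 0.151 and 0.160 Itgal counts per Itgb2 count (cKO over WT 1.06, interval 0.901 to 1.25).

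Itga4 differed from these 3 genes. It encodes the alpha 4 chain, which pairs with the beta 1 chain to bind VCAM-1 and with the beta 7 chain, and it is carried mainly by lymphocytes, monocytes and mast cells and little by neutrophils. Itga4 (ENSMUSG00000027009, chromosome 2 from 79255426 to 79333123, plus strand) had 106 counts in the WT-labelled library and 217 in the cKO-labelled library, or 9.20 and 15.0 CPM, a ratio of 1.63 (interval 1.28 to 2.07). Itga4 counts per Itgal count went from 0.247 to 0.807, a 3.27-fold difference (interval 2.48 to 4.32). Its partner genes were higher as well, Itgb1 by 1.19-fold (interval 1.14 to 1.25) and Itgb7 by 2.01-fold (interval 1.64 to 2.48, from 131 to 332 counts). Exons of Itga4 share 1124 bases with the antisense gene Cerkl, which had 10 and 13 counts. The gene that encodes its ligand, Vcam1, was lower in the same library, so receptor and ligand transcripts differed in opposite directions.

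Beside 8.63% lower and 4.56% higher over all measured genes, 5 of 10 markers shared by leukocytes were at least 2-fold lower. Of these 10 markers 0 were higher, and none was at 0 counts. Their sum went from 2357 to 1171 CPM, 2.01-fold lower. Lcp1, an actin bundling protein, went from 696 to 215 CPM, and Arhgdib from 216 to 260 CPM. Relative to this sum Selplg was at 0.961 (interval 0.892 to 1.03), Itgal at 1.0 (interval 0.857 to 1.17) and Itgb2 at 0.942 (interval 0.884 to 1.0), while Itga4 was 3.27-fold higher (interval 2.59 to 4.13). Against the single pan-leukocyte gene Ptprc, which encodes CD45, Itgal was at 0.901 (interval 0.762 to 1.06), Selplg at 0.866 (interval 0.784 to 0.956) and Itgb2 at 0.849 (interval 0.775 to 0.93). The leukocyte types went in different directions. The neutrophil marker sum was 2.79-fold lower, and it was 6.87-fold lower (interval 6.71 to 7.04) without its most abundant genes S100a8 and S100a9, which inflamed keratinocytes also make. Of the 12 neutrophil markers 10 were at least 2-fold lower, with a median log2 ratio of -2.01. The monocyte or macrophage marker sum was 2.38-fold lower, or 1.5-fold without its most abundant genes Lyz2 and Cd14, and 5 of its 12 markers passed 2-fold. The sum of dendritic and Langerhans cell markers was 2.77-fold higher, with 8 of 10 measured markers at least 2-fold higher. The other 2, Zbtb46 and Cd209a, were at 0.767 (interval 0.526 to 1.12) and 0.836 (interval 0.423 to 1.65). Most counts of this sum were from the MHC class II presentation genes Cd74 and H2-Ab1 (3804 and 2405 of 8469 in cKO). Without these 2 the sum was 2.65-fold higher. The T cell marker sum was 2.42-fold higher, or 2.17-fold (interval 1.85 to 2.55) without Thy1, which fibroblasts also express. Xcr1 and Clec9a, dendritic cell markers, were at 0 counts in the WT-labelled library and at 2 and 3 counts in the cKO-labelled library. Both were too low to count as measured. Relative to the neutrophil and the monocyte or macrophage sums, Itga4 was 4.53-fold (interval 3.59 to 5.72) and 3.86-fold (interval 3.06 to 4.88) higher. These folds depend on the sums. With the 2 most abundant genes of each left out, the first would be 2.46 times as large and the second 0.631 times. Relative to the T cell sum, Itga4 was at 0.670 (interval 0.527 to 0.853). Without Thy1 and Trdc, the 2 most abundant T cell markers, this value would be 1.20 times as large. Relative to the dendritic and Langerhans cell sum Itga4 was at 0.587 (interval 0.463 to 0.743). The part of cell content in the integrin values was not tested.

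**Figure D3:**
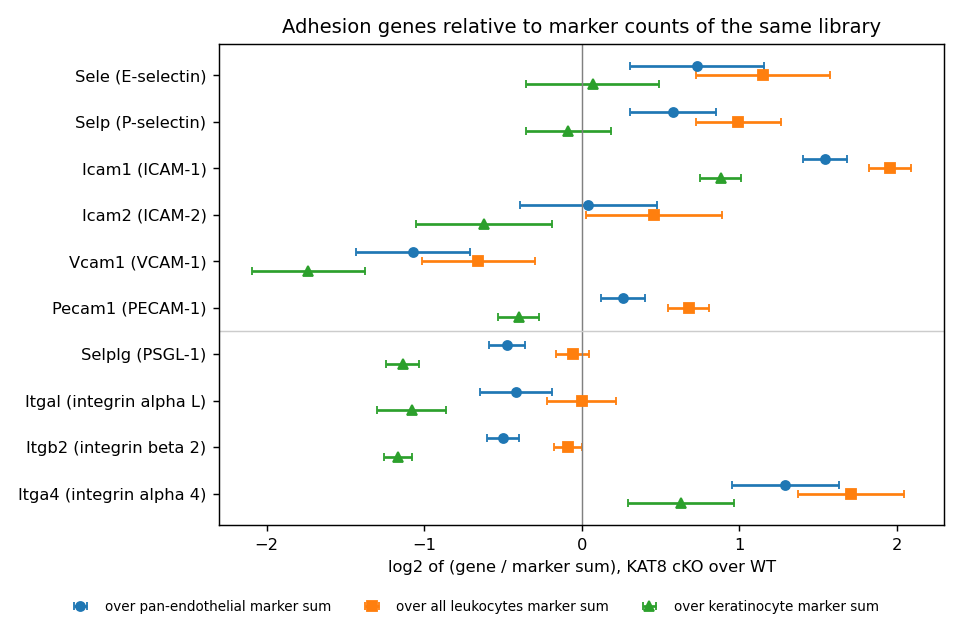
Each adhesion gene relative to the summed counts of endothelial (blue circles), leukocyte (orange squares) and keratinocyte (green triangles) markers of the same library, as log2 of the KAT8 cKO value over the WT value, with 95% log-normal intervals from the counts. Relative to leukocyte markers, Selplg, Itgal and Itgb2 lie at 0 within their intervals, and Itga4 lies at 1.71. Of these 3 sums the keratinocyte one turns direction, from 1.05-fold higher to 1.60-fold lower, when Krt14 and Krt5 are left out.

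The order of levels among the genes can be compared only per kilobase of annotated exon. On that scale, in CPM per kilobase, Itgb2 was highest in both libraries (81.0 in WT and 37.9 in KAT8 cKO). In the WT-labelled library it was followed by Selplg (40.7), then Pecam1 and Icam1 (13.6 and 13.2), then Itgal, Icam2 and Selp (5.68, 4.24 and 3.89), then Sele and Vcam1 (2.30 and 2.14), and Itga4 was lowest (0.658). Counting intervals overlapped between Pecam1 and Icam1, Itgal and Icam2, Icam2 and Selp, and Sele and Vcam1. In the cKO-labelled library, Icam1 stood second (25.5), ahead of Selplg (19.4) and Pecam1 (10.8). Selp, Icam2, Itgal and Sele followed (3.86, 2.90, 2.82 and 2.53), each overlapping the next, then Itga4 (1.07) and, last, Vcam1 (0.676). Itga4 has 13978 bases of annotated exon against 1904 to 8870 for the other genes, and unused long forms would lower its level on this scale but not its ratio.

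The partners of the beta 2 chain differed in make-up. Mac-1, which pairs the same beta chain with the alpha M chain encoded by Itgam, is the main beta 2 integrin of neutrophils and monocytes, and the alpha X chain encoded by Itgax is high on dendritic cells and some macrophages. Itgam had 3283 and 1266 counts and was 3.27-fold lower (interval 3.06 to 3.49), and Itgam counts per Itgb2 count went from 1.15 to 0.754, 1.53-fold lower (interval 1.40 to 1.67). Itgax had 124 and 185 counts, a ratio of 1.18 (interval 0.938 to 1.5). Of the CPM per kilobase summed over Itgal, Itgam, Itgax and Itgad, Itgam held 87.7% in the WT-labelled library and 76.0% in the cKO-labelled library, Itgal held 8.79% and 12.4%, and Itgax 3.47% and 11.6%. Itgax counts per Itgb2 count went from 0.0436 to 0.110, a 2.53-fold difference (interval 2.0 to 3.20).

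Of all measured genes 8.63% were lower and 4.56% higher. Among 13 measured genes of the list of other leukocyte integrin subunits (14 in all), 1 was at least 2-fold lower and 1 higher. Their median log2 ratio was 0.09. The lower one was Itgam. The higher one, Itgae, encodes the alpha E chain, which pairs with the beta 7 chain on T cells and dendritic cells of epithelia, and it had 8 and 73 counts, a ratio of 7.24 (interval 3.49 to 17.4).

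Over all measured genes 8.63% were lower and 4.56% higher. The list of selectin ligand carriers and glycan enzymes had 3 of 16 measured genes lower and 0 higher, with a median of -0.21. Among the lower ones, the enzyme genes Gcnt1, which starts the branched glycans that selectins bind, and St3gal6, a sialyltransferase, were 3.61-fold (948 and 331 counts) and 2.55-fold (473 and 234 counts) lower. Glycam1 and Chst4, known from lymph node venules, were at 0 counts in both libraries, which allows up to 0.260 CPM (WT) and 0.207 CPM (cKO) at a floor of 3 counts.

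All measured genes had 8.63% lower and 4.56% higher. Of 13 genes for adaptors that switch integrins on, 0 passed 2-fold in either direction. Their median log2 ratio was -0.52, and 11 of 13 values were below 0. The talin gene Tln1 went from 290 to 275 CPM, and Rap1b, which encodes a small GTPase upstream of talin, from 315 to 245 CPM. Junctional molecules of passage through the vessel wall had 1 of 12 lower and 0 higher (median -0.24). Jam2, a junctional adhesion molecule, had 309 and 175 counts and was 2.22-fold lower (interval 1.84 to 2.69), a call that was lost with plain CPM, where 0 of 12 passed. Msn and Ezr, which link membrane proteins to actin, had log2 ratios of -0.12 and -0.29.

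Signals that induce endothelial adhesion molecules had 4 of 16 measured genes lower and 0 higher, with a median of -0.39. Log2 ratios were below 0 for 11 of the 16 and above 0 for 5. Among these 5, the receptor genes Il1r1 and Tnfrsf1a were 1.69-fold (interval 1.56 to 1.83) and 1.41-fold (interval 1.35 to 1.47) higher. Il1a, a cytokine gene, was at 64.3 CPM (WT) and 11.2 CPM (cKO), 5.76-fold lower (interval 4.85 to 6.87). Il1b was at 1238 and 271 CPM, 4.57-fold lower (interval 4.41 to 4.73). Tnfrsf1b, which encodes a TNF receptor, was 2.35-fold lower, and Tnfaip3, a feedback inhibitor that is itself an NF-kappaB target, was 3.09-fold lower. In the same library Icam1, also known as an NF-kappaB target, was higher, Sele was level and Vcam1 was lower. Over the 5 pathway lists, with each gene counted once, 9 of 70 measured genes were lower and 1 was higher (median -0.25), beside the 8.63% and 4.56% of all measured genes.

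**Figure D4:**
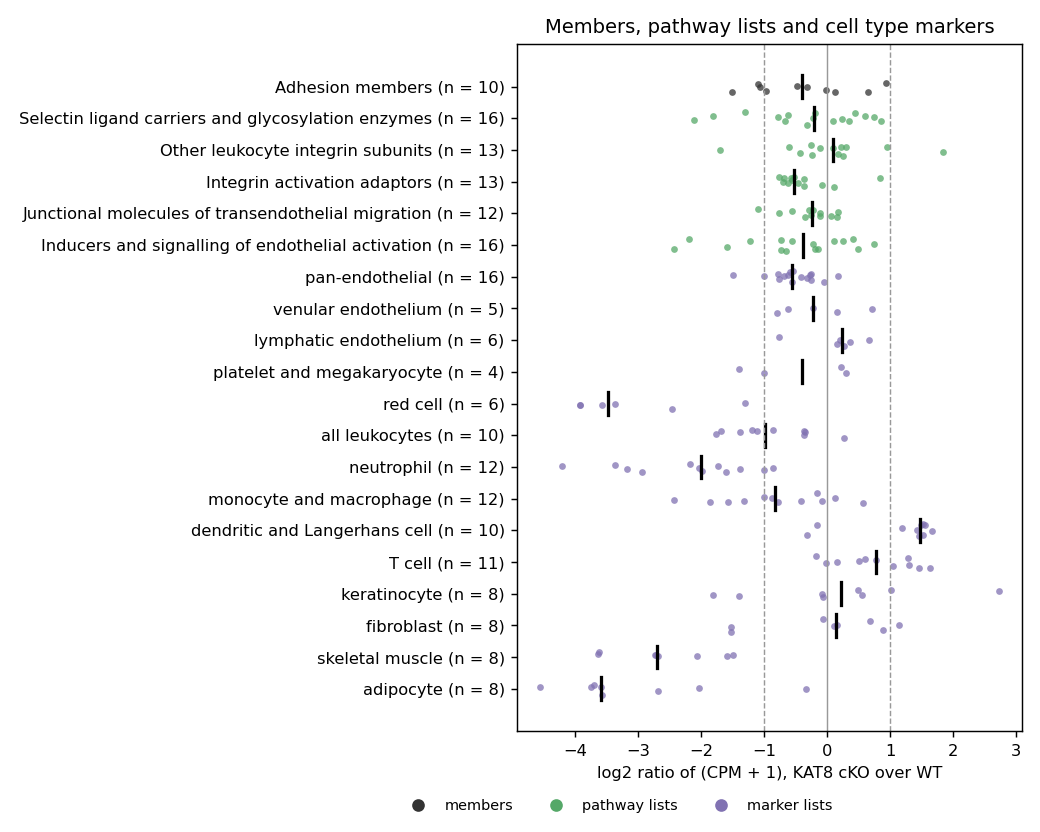
Log2 ratio of (CPM + 1), KAT8 cKO over WT, for each measured gene of the adhesion members (black), the 5 pathway lists (green) and the 14 marker lists (purple), with a bar at each median and dashed lines at 2-fold. The member median lies at -0.40, while the neutrophil, muscle, adipocyte and red cell medians lie at -2.01 or below and the dendritic cell median lies at 1.47.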

How the data were processed

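Ear skin RNA of 2 libraries, 1 per genotype, was analysed. The authors deposited unnormalized whole-number counts for each Ensembl gene, per the file headers and values. Per the submitters' processing notes, HISAT2, StringTie 1.3.0, edgeR and mm10 were used, with no role stated. The sources used here do not give the counting tool, annotation release or strand setting, so reads of overlapping antisense genes cannot be told apart. Per the labels' protocols, libraries were made from selected mRNA.

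Symbols, coordinates (from 1) and exon lengths were taken from GENCODE M21 on GRCm38, the assembly that mm10 names; 34267 genes had a symbol, and the other 478 stayed in the totals. Promoters are RefSeq's on GRCm38.p6. Counts were scaled by TMM in edgeR 4.0.16 under R 4.3.3 (factors 0.946 and 1.06). A gene was measured at 1 CPM or more in either library, and a pseudocount of 1 CPM was added before log2. Folds without a log are plain ratios with exact (Clopper-Pearson) 95% intervals, and ratios within a library have log-normal 95% intervals. All intervals cover counting error only, and without molecular identifiers reads are not independent molecules. No test and no p-value was possible with 1 library per group. The arithmetic was checked on simulated data.

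The 10 members and the 5 pathway and 14 marker lists were chosen with earlier results of these data known. All members were named, with the genes of each pathway list past 2-fold (up to 5, or the 2 most abundant where fewer than 2 passed) and the 2 most abundant genes of a marker list; 1 gene the rule named is not reported here. Itgb1, Itgb7, Itgax, Ptprc and genes at 0 counts were named beside these because a value rests on them. So were Krt1, Krt10, Krt15, Col17a1, Zbtb46, Cd209a, Tnfrsf1a and Il1r1, to show both directions of a list. Alternatives were plain CPM, DESeq2 1.42.0 size factors, totals without the 50 most abundant genes, a pseudocount of 0.1, a filter of 5 CPM and no filter. Marker sums without their 2 most abundant genes, or without Thy1, were added after seeing the data.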

Additional observations from a re-analysis of the deposited data

How the results depend on the processing

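With 1 library per genotype, depth limits only counting error, which is widest for Sele, Icam2 and Vcam1, and the spread between animals is unknown. The number of adhesion genes at least 2-fold lower was 3, and it was 1 with plain CPM and 1 with totals that leave out the 50 most abundant genes. The number higher was 0, and it was 1 under both of these scalings. Over all measured genes 8.63% were lower and 4.56% higher, against 6.94% and 6.33% with plain CPM and 7.73% and 5.87% without the 50 most abundant genes. With a pseudocount of 0.1, 4 members were lower, Itgal being the added one, beside 11.3% of all genes lower and 6.64% higher. DESeq2 size factors, a filter of 5 CPM and no filter gave 3 lower and 0 higher, beside 8.47%, 8.83% and 3.78% of all genes lower and 4.70%, 4.37% and 2.0% higher. The median log2 ratio of the members lay between -0.44 and -0.25 under all 6 alternatives. Selp alone changed sign, between -0.01 and 0.14. Vcam1 lay between -1.65 and -1.37 and Icam1 between 0.94 and 1.10. Over the 5 pathway lists, 1 gene was higher, and it was 2 with plain CPM, 2 without the 50 most abundant genes and 5 with a pseudocount of 0.1, while 8 or 9 were lower under every alternative. Endothelial members were also set against the pan-endothelial markers, and leukocyte members against the markers of all leukocytes. With the median of marker ratios in place of these marker sums, 1 member (Vcam1) was lower by at least 2-fold. By the same measure 2 members (Icam1 and Itga4) were higher, the same numbers as with sums. No paired analysis was possible because each genotype has 1 library.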

Other observations

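Over the whole integrin family, chosen after the values were seen, 2 of 17 measured alpha chain genes were at least 2-fold lower in the cKO-labelled library and 1 was higher, beside 8.63% and 4.56% of all measured genes. The lower ones were Itgam and Itga11, a collagen receptor chain of fibroblasts with 54 and 26 counts, and the higher one was Itgae. Of 8 beta chain genes Itgb2 alone was lower and 0 were higher. Itgb4, a hemidesmosome chain of basal keratinocytes, went from 259 to 422 CPM, 1.63-fold higher (interval 1.56 to 1.70). Of 2 further immunoglobulin family adhesion genes, Alcam went from 24.6 to 38.2 CPM and Mcam, carried by endothelium and vessel wall cells, from 49.9 to 47.3 CPM.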
